A study of Danio rerio with 6 samples.

Results

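The genes described here are 7 members of the TNF receptor superfamily, tnfrsf1a, tnfrsf1b, tnfrsf11a, tnfrsf11b, tnfrsf9b, tnfrsf21 and tnfrsf19, among 32105 genes counted in sorted cells of zebrafish embryos. They were chosen by gene symbol and with their CPM in these same mutant and wildtype libraries in view, so their difference between genotypes is given as a description, without a test. RNA-seq was run on polyadenylated RNA of cd41-positive cells, sorted from ddx41 mutants and from controls 40 hours after fertilization, with 3 libraries per genotype; the controls are called wildtype or siblings in the labels. The mutant allele, the number of embryos per library and the sort gates are not given in the sources used here, nor is it said that libraries came from separate clutches, so p-values reflect only how far these libraries scatter. Every library title begins with cd41gfp, a name that points to a GFP reporter of cd41. The cells may thus have been picked by GFP rather than by the Cd41 protein. Cd41 is an integrin chain encoded by itga2b, a marker of thrombocytes and of early blood stem cells. DDX41 is a DEAD-box RNA helicase.

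TNF superfamily ligands bind as trimers to receptors whose outer part is built of cysteine-rich repeats. Receptors with a death domain, such as the products of tnfrsf1a and tnfrsf21, can recruit adaptors that lead to cell death, whereas receptors such as those of tnfrsf1b, tnfrsf9b, tnfrsf11a and tnfrsf19 recruit TRAF proteins and act through NF-kB and stress kinases. The product of tnfrsf11b, osteoprotegerin, is secreted and acts as a decoy. In zebrafish embryos, TNF signalling through tnfrsf1b is known to act in the emergence of blood stem cells.

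Gene counts summed to between 14577735 and 15912260 in a mutant library and between 17001423 and 17639699 in a wildtype one. All 12 blood stem and progenitor markers looked for were counted in both genotypes, summing to 325 to 492 CPM in mutants and 349 to 610 CPM in wildtypes (CPM, counts relative to the TMM-adjusted library total). The transcript of cd41 itself, itga2b, was low, at 2.62, 4.33 and 6.44 CPM in mutants and 3.22, 1.18 and 1.6 CPM in wildtypes. Markers of other cells were present in every library, and some libraries stood apart in them. Rose and fell here mean called by the edgeR quasi-likelihood test of genotype (adjusted p below 0.05). Of all genes tested, 3.34% rose and 1.99% fell by it. Pigment and neural crest markers (1 of 6 tested fell) summed to 5585 CPM in wildtype replicate 1, to 1168 and 204 CPM in wildtype replicates 2 and 3 and to 19.5 to 459 CPM in mutants. Neuron and retina markers (3 of 7 fell) summed to 427 CPM in wildtype replicate 1, to 92.1 to 103 CPM in the others and to 35.1 to 45.8 CPM in mutants. Erythroid markers (7 of 9 rose) summed to 4826 to 16592 CPM in mutants and 296 to 2476 CPM in wildtypes. Thrombocyte markers, of the other cells known to carry Cd41, rose in 4 of 6 and summed to between 119 and 426 CPM in mutants against 26.1 to 73.4 CPM in wildtypes. Lens markers rose in 5 of 6 and summed to between 45.5 and 126 CPM in mutants against 6.67 to 9.50 CPM in wildtypes, and the part of these shifts in the receptor values was not tested. Myeloid markers, led by the lysozyme gene lyz, summed to 8574 to 12146 CPM in mutants and 14950 to 30081 CPM in wildtypes.

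Of the 7 receptor genes, 4 were lower in every mutant library than in every wildtype library: tnfrsf1b, tnfrsf11a, tnfrsf11b and tnfrsf9b. The remaining 3, tnfrsf1a, tnfrsf21 and tnfrsf19, overlapped between genotypes. Of all 18722 genes tested, 13.4% lay wholly below in the mutants, and 5.33% were called by the edgeR quasi-likelihood test (adjusted p below 0.05), 3.34% higher and 1.99% lower. That 4 of the 7 receptor genes lay wholly below is not independent of how the 7 were chosen, so no adjusted p is printed for them. These are bulk samples, in which fewer cells of a type and less RNA per cell cannot be told apart.

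**Figure D1:**
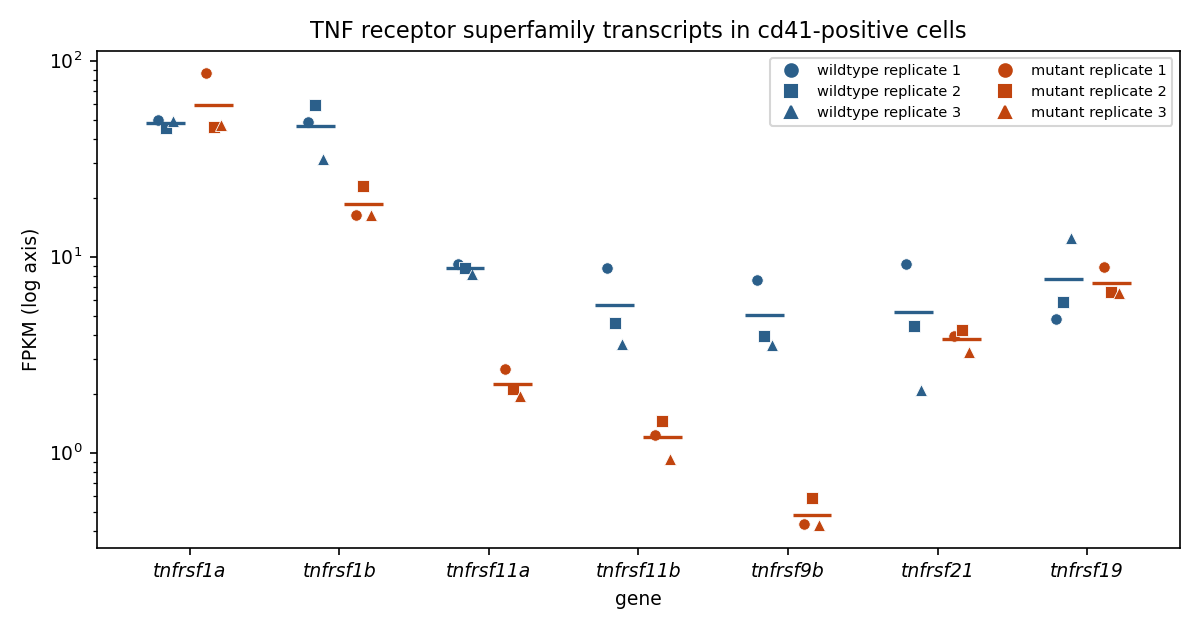
Level of each receptor gene in every library, as CPM per kilobase of exon (FPKM, log axis), with wildtype in blue, mutant in orange, a symbol per replicate number and a line at the mean of 3 libraries. The genotypes are separate for tnfrsf1b, tnfrsf11a, tnfrsf11b and tnfrsf9b, and overlap for tnfrsf1a, tnfrsf21 and tnfrsf19.

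The receptors of TNF itself had the highest levels of the 7 per kilobase of exon. The death-domain receptor gene tnfrsf1a (ENSDARG00000018569) stood at 125, 114 and 123 CPM in wildtype replicates 1 to 3 and at 216, 115 and 117 CPM in the mutants. Mutant replicate 1 was thus above every other library, while the other mutant libraries lay among the wildtypes. The log2 fold change, mutant over wildtype, was 0.31 ± 0.29 (SE), and -0.07 without mutant replicate 1. In contrast tnfrsf1b (ENSDARG00000070165), whose mammalian counterpart is found mainly on immune and endothelial cells, was at 191, 234 and 125 CPM in wildtypes and at 64.2, 90.8 and 64.6 CPM in mutants. The highest mutant library was below the lowest wildtype library, and the fold change was 2.51-fold lower (log2 -1.32 ± 0.30). Within a library, where scaling plays no part, the FPKM of tnfrsf1a was 1.03, 0.764 and 1.55 times that of tnfrsf1b in the wildtypes and 5.28, 1.99 and 2.85 times in the mutants. The ratio was thus nearer to 1 in every wildtype library than in any mutant library.

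Genes of the RANK system were lower in the mutants on both its arms. RANK, the product of tnfrsf11a, is the receptor through which its ligand drives osteoclast formation from myeloid cells, and osteoprotegerin from tnfrsf11b binds that ligand outside the cell. The receptor gene tnfrsf11a (ENSDARG00000087804) was even across wildtypes, at 33.4, 31.5 and 29.6 CPM, and stood at 9.68, 7.69 and 7.08 CPM in mutants. It was 3.87-fold lower (log2 -1.95 ± 0.29). The decoy gene tnfrsf11b (ENSDARG00000098377) was at 20.4, 10.7 and 8.38 CPM in wildtypes and 2.86, 3.36 and 2.17 CPM in mutants, 4.70-fold lower (log2 -2.23 ± 0.49). Its highest value was in wildtype replicate 1, and without that library the log2 fold change was -1.77. The FPKM of tnfrsf11a was 1.05, 1.89 and 2.27 times that of tnfrsf11b in the wildtypes and 2.18, 1.47 and 2.10 times in the mutants, so this ratio overlapped between genotypes.

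The largest difference among the 7 was in tnfrsf9b (ENSDARG00000090728), a zebrafish counterpart of the co-stimulatory receptor gene TNFRSF9 of activated mammalian T cells. It held 236, 104 and 113 counts in wildtypes (12.5, 6.45 and 5.84 CPM) and only 9, 15 and 11 counts in mutants (0.714, 0.969 and 0.702 CPM). The fold change was 10.3-fold lower (log2 -3.36 ± 0.57), and -2.94 on the log2 scale without wildtype replicate 1, its highest library. With 35 counts over the 3 mutant libraries, counting error alone limits how exactly the mutant level is known. Its paralogue tnfrsf9a was at 28.7, 8.13 and 4.91 CPM in wildtypes and 10.5, 3.88 and 4.02 CPM in mutants, and did not pass the test (log2 -1.19 ± 0.70, edgeR adjusted p = 0.356). Both paralogues were highest in wildtype replicate 1, and without it the log2 fold change of tnfrsf9a was -0.09 (adjusted p = 0.954).

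The receptor genes tnfrsf21 and tnfrsf19 are known in the mouse from the nervous system and also, respectively, from T cells and from embryonic skin. In wildtypes tnfrsf21 (ENSDARG00000001807) spread from 44.5 CPM in replicate 1 through 21.4 to 10.1 CPM in replicate 3, and the mutants, at 19.1, 20.6 and 15.8 CPM, lay inside that range. Its log2 fold change of -0.45 ± 0.48 became 0.23 without wildtype replicate 1. For tnfrsf19 (ENSDARG00000041869) the wildtypes were at 16.0, 19.6 and 41.9 CPM and the mutants at 29.7, 22.2 and 21.8 CPM. Wildtype replicate 3 held the high value here, and the log2 fold change of -0.08 ± 0.39 became 0.46 without it. For these 2 genes the spread among wildtypes was thus larger than any difference between genotypes.

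**Figure D2:**
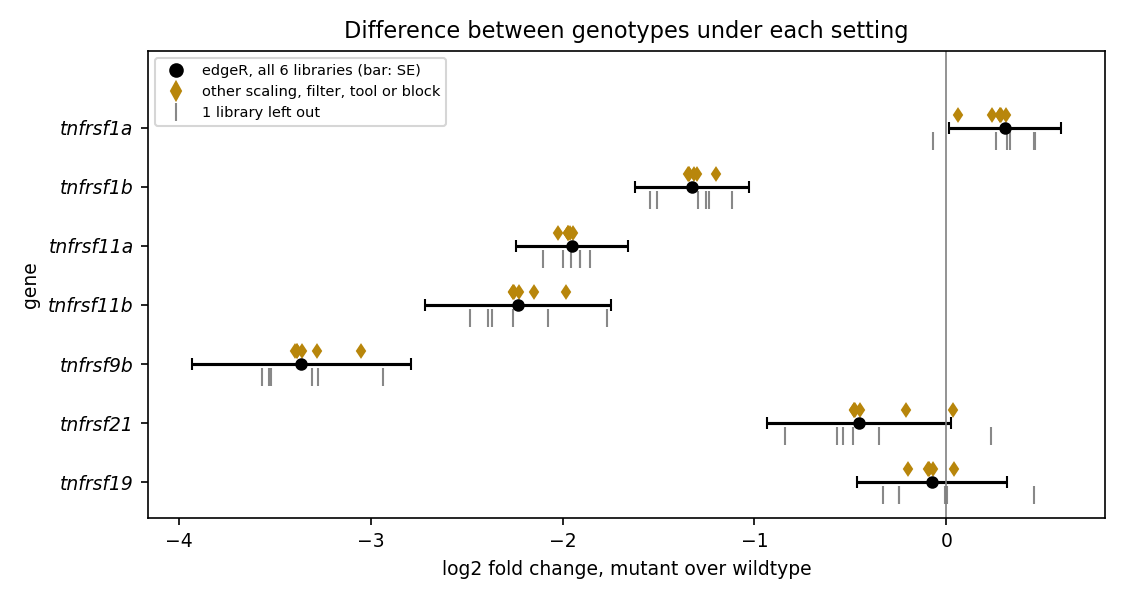
Log2 fold change of each receptor gene, mutant over wildtype: black points are the edgeR estimate from all 6 libraries with its SE, gold diamonds other scalings, filters, tools or the replicate block, and grey ticks the estimate with 1 library left out. The estimates of tnfrsf1b, tnfrsf11a, tnfrsf11b and tnfrsf9b stay below 0 under all 12 alternatives, from -1.12 for the smallest of tnfrsf1b to -3.57 for the largest of tnfrsf9b, while those of the other receptor genes lie on both sides of 0.

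Per kilobase of exon, the order of the 7 genes differed in its spacing between genotypes. In wildtypes tnfrsf1a and tnfrsf1b led at 48.2 ± 2.37 and 46.6 ± 14.0 FPKM (SD, n = 3 for each mean) and did not differ beyond their spread. Then came tnfrsf11a at 8.70 ± 0.52, tnfrsf19 at 7.72 ± 4.19, tnfrsf11b at 5.65 ± 2.73, tnfrsf21 at 5.22 ± 3.61 and tnfrsf9b at 5.01 ± 2.22 FPKM, with tnfrsf11a apart from the leading pair and each of these 5 overlapping its neighbours among them. In mutants the order was tnfrsf1a at 59.6 ± 23.1, tnfrsf1b at 18.6 ± 3.87, tnfrsf19 at 7.32 ± 1.33, tnfrsf21 at 3.81 ± 0.50, tnfrsf11a at 2.25 ± 0.38, tnfrsf11b at 1.2 ± 0.26 and tnfrsf9b at 0.482 ± 0.092 FPKM. There no gene's libraries overlapped those of its neighbour. Summed over the 7 genes, tnfrsf1a made up 34.3% to 44.4% of the FPKM in wildtypes and 54.6% to 72.1% in mutants. This share depends on the whole sum, in which tnfrsf1b was lower in mutants, while tnfrsf1a itself overlapped between genotypes. Among all tested genes, 72.7% had a lower mean FPKM than tnfrsf11a in wildtypes and 39.2% in mutants. For tnfrsf9b these shares were 59.3% and 10.6%, and for tnfrsf1a 94.9% and 95.7%.

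On GRCz10, the build named in the file header, tnfrsf1a lies on chromosome 16 (17154114 to 17164463), tnfrsf11a on chromosome 24 (18341447 to 18366212), tnfrsf11b on chromosome 19 (142180 to 146056), tnfrsf21 on chromosome 20 (35895119 to 35938691) and tnfrsf19 on chromosome 15 (8259460 to 8333146). Only tnfrsf9b and tnfrsf1b of the 7 share a chromosome, 11, both on the minus strand, at 39823996 to 39837101 and at 40167484 to 40193180. They are 330382 bases apart with 8 annotated genes lying wholly between them. Of these 8, 6 had enough counts to be tested and none passed (0 by edgeR, 0 with an unadjusted p below 0.05, 0 by DESeq2 and 0 by limma voom). Their log2 fold changes ran from -1.12 to 0.87. The lowest was TRIM62 (ENSDARG00000060901) at -1.12 ± 0.90 (SE), with only 5, 19 and 5 counts in mutants. The estimate of tnfrsf1b, -1.32 ± 0.30, lay within that SE, whereas that of tnfrsf9b lay farther below. Both receptor genes were also chosen with their values in view. The exons of tnfrsf19 share 46 bases with MIPEP, where reads cannot be told apart without strand.

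Other receptors of the superfamily were then compared. Of 24 looked for, 11 were found, 9 by their own symbol and 2 by an orthologue's symbol (both NGFR), and 9 of the 11 had enough counts to be tested, of which 1 fell in the mutants (11.1%, against 1.99% of all genes), 0 rose and 8 did not pass. The median log2 fold change was -0.34, against 0.02 over all genes tested. The gene that fell was NGFR (ENSDARG00000088708), whose mammalian counterpart is the neurotrophin receptor of neurons and neural crest. It stood at 15.8, 4.10 and 9.10 CPM in wildtypes and 1.59, 0.646 and 0.383 CPM in mutants (log2 -3.48 ± 0.74 SE, edgeR adjusted p = 0.0308), lower in 3 of 3 mutant libraries. It did not pass when any 1 library other than mutant replicate 1 was left out (adjusted p = 0.0772 to 0.124). The second gene with that symbol, ENSDARG00000089223, was at log2 -0.34 (adjusted p = 0.749). Pigment and neural crest markers were also lower in 2 of 3 mutant libraries than in any wildtype library, and their part in this result was not tested.

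Of these 9 receptors tested, 3 had all mutant libraries below all wildtype libraries, against 13.4% of all genes. Besides NGFR these were cd40 and tnfrsfa, which did not pass the threshold. The gene cd40, which encodes a receptor of antigen-presenting cells in mammals, was at 34.5, 32.3 and 37.2 CPM in wildtypes and 24.0, 18.1 and 12.3 CPM in mutants (log2 -0.94 ± 0.31, edgeR adjusted p = 0.115). The receptor gene tnfrsfa, the most abundant of this list, was at 54.9, 54.6 and 29.1 CPM and at 26.4, 20.9 and 13.7 CPM (log2 -1.19 ± 0.36, adjusted p = 0.0900).

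Ligand genes gave no call. Of 14 found, 11 were tested and 0 passed in either direction by edgeR, 1 had an unadjusted p below 0.05, and DESeq2 and limma voom each called 1 lower. The median log2 fold change was -0.06. That gene was tnfsf12, which encodes the ligand TWEAK, at 9.45, 9.74 and 12.6 CPM in wildtypes and 5.56, 0.582 and 1.34 CPM in mutants (log2 -2.09 ± 0.75, edgeR adjusted p = 0.138). Without mutant replicate 1, its highest mutant library, it was at log2 -3.46 and passed (adjusted p = 0.00977). The TNF gene tnfb was the most abundant ligand, at 32.9, 78.4 and 88.4 CPM in wildtypes and 68.4, 35.3 and 50.4 CPM in mutants, and did not pass (adjusted p = 0.630). The RANK ligand gene tnfsf11 was low, at 2.53, 6.02 and 2.33 CPM in wildtypes and 2.06, 1.23 and 1.85 CPM in mutants (log2 -1.08 ± 0.65, adjusted p = 0.369). The genes tnfsf13b, which encodes the B cell survival factor BAFF, and tnfsf10l4 were at log2 1.65 ± 0.79 and 0.94 ± 0.64 and did not pass (adjusted p = 0.252 and 0.432).

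Adaptors and kinases that carry the signal inside the cell gave no call by edgeR either. Of 26 tested, 0 passed in either direction, 3 had an unadjusted p below 0.05, DESeq2 called 1 higher and limma voom 2 higher. Their log2 fold changes were positive for 14 and negative for 12, with a median of 0.13. The smallest p belonged to TAB3, a partner of the kinase TAK1, whose mean was 28.7 ± 4.05 CPM over mutant and 14.9 ± 2.3 CPM over wildtype libraries (SD, n = 3; edgeR adjusted p = 0.0908), and to casp8, the initiator caspase gene of death receptors, at 29.1 ± 3.23 and 15.4 ± 3.88 CPM (adjusted p = 0.109). The ubiquitin ligase subunit gene sharpin was at 14.3 ± 0.92 and 8.37 ± 0.32 CPM (adjusted p = 0.198), and ripk1l, a counterpart of the death-domain kinase gene RIPK1, at 9.43 ± 2.23 and 16.0 ± 2.47 CPM (adjusted p = 0.230). The highest mean CPM over all 6 libraries was that of TAX1BP1 (ENSDARG00000056856), which did not pass, at 74.1 ± 5.58 and 65.4 ± 15 CPM (adjusted p = 0.723). In mutants alone the TRAF gene traf2b was level with it, at 74.1 ± 16.5 CPM.

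Among 25 genes listed here as induced by TNF and NF-kB, 1 rose, 2 fell and 22 did not pass. That was 4.0% higher against 3.34% of all genes, and 8.0% lower against 1.99%. This list, like the others, was chosen with earlier results of these data known. The median log2 fold change was -0.25. The gene that rose, tnfaip2b, was nearly absent from wildtypes at 0.898, 0.434 and 0.207 CPM and stood at 27.1, 11.5 and 14.6 CPM in mutants, 34-fold higher (log2 5.09 ± 0.66, edgeR adjusted p = 0.00681). It passed with any 1 library left out except wildtype replicate 2 (adjusted p = 0.0701). Its paralogue tnfaip2a was at log2 -0.74 (adjusted p = 0.672). The gelatinase gene MMP9, strongly expressed by neutrophils, was at 903, 1585 and 730 CPM in wildtypes and 345, 318 and 228 CPM in mutants, 3.62-fold lower (adjusted p = 0.0209). The call was lost when mutant replicate 2, mutant replicate 3 or wildtype replicate 2 was left out (adjusted p = 0.0918, 0.101 and 0.0841). The chemokine gene ccl34b.1 was at 22.5, 12.2 and 7.45 CPM in wildtypes and 2.62, 0.452 and 0.446 CPM in mutants (log2 -3.60 ± 0.80, adjusted p = 0.0361), a call kept only without mutant replicate 1 when single libraries were left out. The collagenase gene mmp13a had a mean of 387 ± 120 CPM over the mutants and 924 ± 392 CPM over the wildtypes (SD, n = 3; adjusted p = 0.0841). Classical feedback genes of the pathway, TNFAIP3 and the inhibitor genes nfkbiaa and nfkbiab, were at log2 -0.36, 0.61 and 0.34 and overlapped between genotypes. These feedback genes and tnfaip2a were chosen after their values were seen.

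Genes that RANK signalling induces in osteoclasts, or that mark these cells, gave no call by edgeR. Of 10 tested, 0 passed in either direction, 6 had an unadjusted p below 0.05 (22.8% of all genes tested did), DESeq2 called 3 lower, limma voom 2, the fit with the replicate block 3 and the fit without a filter on low counts 1. The median log2 fold change was -0.90, with 8 negative and 2 positive. All mutant libraries were below all wildtype libraries for 5 of the 10, against 13.4% of all genes. They were all above for 1, against 15.3% of all genes. The receptor gene of macrophage colony stimulating factor, csf1ra, which is also on the myeloid list, was at 238, 148 and 100 CPM in wildtypes and 66.3, 13.1 and 30.2 CPM in mutants (log2 -2.15 ± 0.56, edgeR adjusted p = 0.0584). The protease gene CTSK was at 22.9 ± 10.2 and 5.06 ± 4.44 CPM in wildtypes and mutants (SD, n = 3; adjusted p = 0.0910), the transcription factor gene NFATC1 at 10.3 ± 0.88 and 3.69 ± 2.35 CPM (adjusted p = 0.135), and the acid phosphatase gene ACP5 at 35.7 ± 12.3 and 15.2 ± 7.86 CPM (adjusted p = 0.147). The early response gene FOS, the most abundant of the list, lay the other way, at 261 ± 156 and 576 ± 186 CPM (adjusted p = 0.166). Without mutant replicate 1, csf1ra and CTSK passed (adjusted p = 0.00924 and 0.0136).

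**Figure D3:**
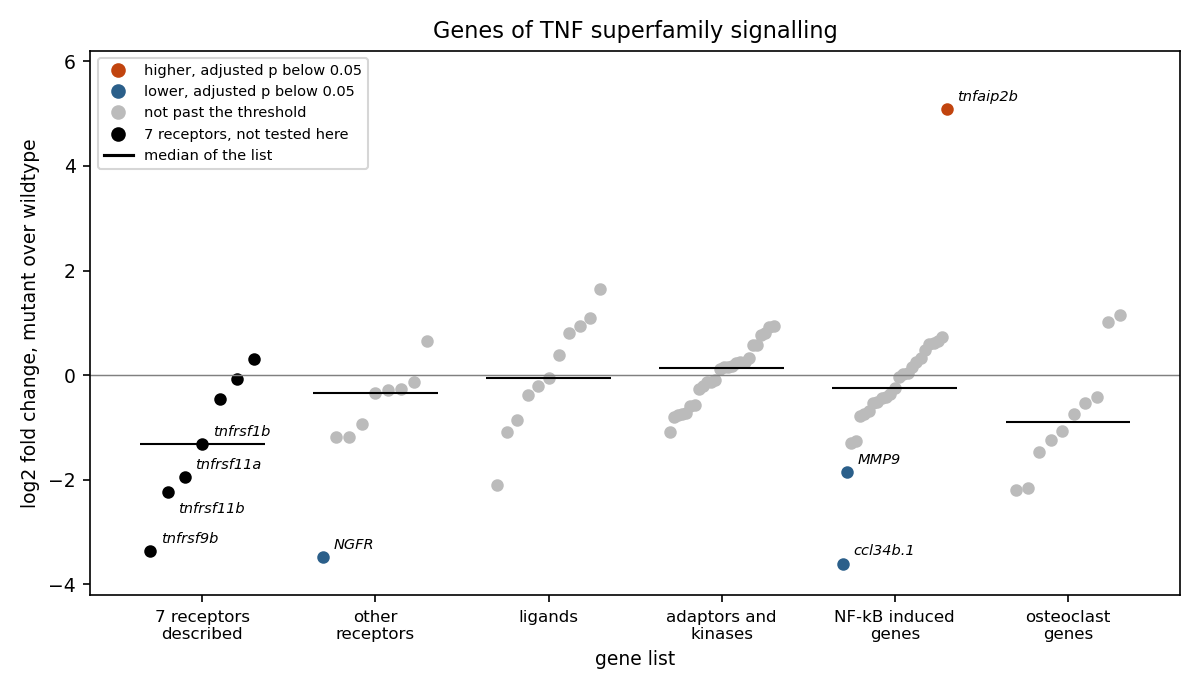
Log2 fold change, mutant over wildtype, of every tested gene of the 7 receptors described and of 5 lists of TNF superfamily signalling, with a bar at each median. Coloured points passed edgeR at an adjusted p below 0.05, namely NGFR at -3.48, MMP9 at -1.85, ccl34b.1 at -3.60 and tnfaip2b at 5.09. Black points are the 7 receptors, which are not coloured by the test. Names stand beside every point with an edgeR adjusted p below 0.05, among the 7 tnfrsf1b, tnfrsf11a, tnfrsf11b and tnfrsf9b. The 7 were chosen with their values in view, so their names are not to be read as a test of them.

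Markers of other cells were set beside the receptors, library by library. Of 10 myeloid markers tested, 7 had all mutant libraries below all wildtype libraries, against 13.4% of all genes, and all 10 had a negative log2 fold change (median -0.85). Only 1 of the 10 fell by the test, against 1.99% of all genes, the pan-leukocyte gene LCP1 (edgeR adjusted p = 0.0372). Divided by the summed myeloid markers of the same library, tnfrsf1b was at 7.49, 7.47 and 7.40 CPM per 1000 CPM in mutants and at 12.8, 7.79 and 5.07 in wildtypes. Its groups overlapped on that measure, with the wildtype mean 1.15 times the mutant mean. They also overlapped with lyz left out of the sum (1.43 times). For tnfrsf11a the values were 1.13, 0.633 and 0.811 in mutants and 2.24, 1.05 and 1.2 in wildtypes, which overlapped as well (1.74 times), but they did not overlap when the dominant gene lyz was left out of the sum (2.23 times). The gene tnfrsf9b remained apart on both sums, at 0.0833, 0.0798 and 0.0803 in mutants against 0.834, 0.215 and 0.238 in wildtypes with lyz included (5.28 times, and 6.46 without lyz). For tnfrsf11b the wildtype mean was 2.4 times the mutant mean, but its lowest wildtype library, at 0.341, was close to its highest mutant library, at 0.333. Without lyz in the sum, tnfrsf11b was farther apart, at 2.04, 1.95 and 1.51 in mutants and 9.90, 3.01 and 3.18 in wildtypes (2.93 times). Relative to the sum with lyz included, tnfrsf1a was higher in every mutant library, at 25.2, 9.45 and 13.4 against 8.36, 3.79 and 5.02 in wildtypes. Without lyz it was also higher, at 154, 66.7 and 81.6 against 60.7, 31.9 and 46.9. Both sums were themselves lower in every mutant library, while the CPM of tnfrsf1a overlapped between genotypes. A gene with unchanged CPM would thus also tend to be higher on these ratios. What share of the differences the makeup of the sorted cells accounts for was not tested.

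**Figure D4:**
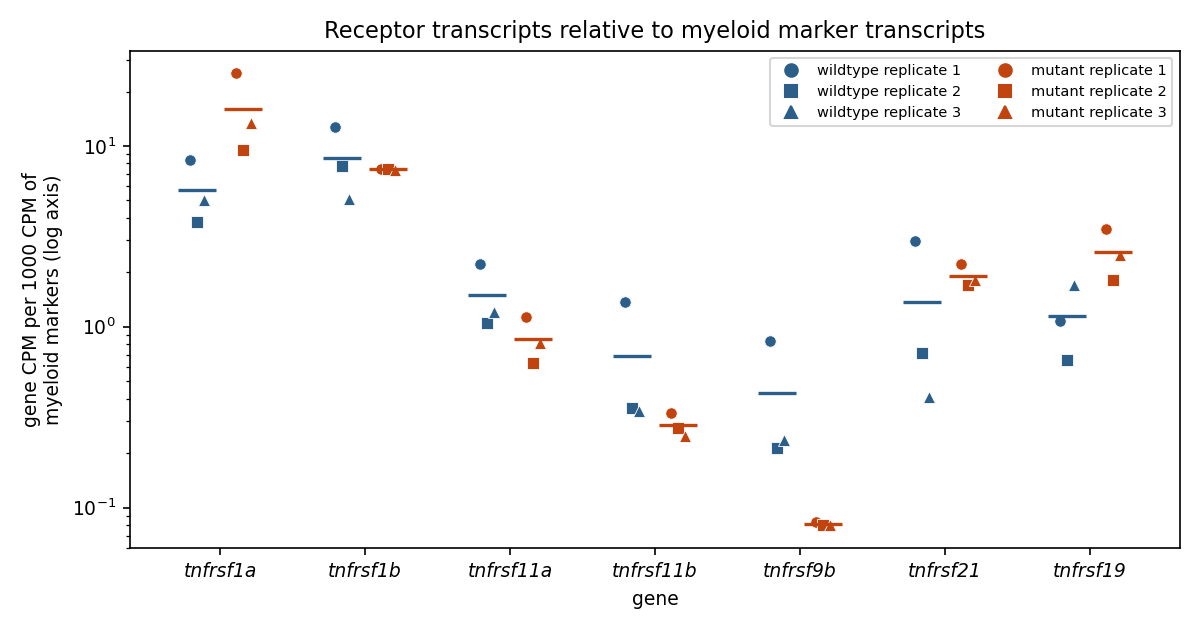
CPM of each receptor gene per 1000 CPM of the 10 summed myeloid markers in the same library (log axis), with a line at the mean of 3 libraries. The genotypes overlap for tnfrsf1b, tnfrsf11a and tnfrsf21. They stay apart for tnfrsf9b, at 0.0798 to 0.0833 in mutants and 0.215 to 0.834 in wildtypes, and narrowly for tnfrsf11b. Mutants are higher for tnfrsf1a and tnfrsf19. With lyz left out of the sum (not drawn), tnfrsf19 overlapped, at 12.9 to 21.2 in mutants and 5.49 to 15.9 in wildtypes.

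Blood stem and progenitor markers gave a different divisor, since their sum overlapped between genotypes. The makeup of that sum was not steady, with MYB most abundant in mutants and CEBPA in wildtypes. Of the 12 genes, 9 had a negative log2 fold change, as did 9172 of all 18722 tested. Their median was -0.61, against 0.02 over all genes tested. By edgeR 1 of the 12 rose (8.33%, against 3.34% of all genes) and 0 fell. Per 1000 CPM of that sum, tnfrsf11a was at 29.8, 21.7 and 14.4 in mutants and 95.6, 51.7 and 50.7 in wildtypes. The wildtype means of tnfrsf9b and tnfrsf11b were 8.84 and 3.98 times the mutant means, without overlap in these 3 genes. What share of all genes stays apart on such a ratio, by either marker sum, was not computed. The 3 genes were also chosen with their values in view, so this is a description only. On this measure tnfrsf1b overlapped, at 198, 256 and 131 in mutants and 547, 384 and 213 in wildtypes. Endothelial markers summed to 36.2 to 110 CPM in mutants and 35.3 to 73.7 CPM in wildtypes. Of 9 tested, 1 rose (11.1%, against 3.34% of all genes) and 0 fell, with a median log2 fold change of 0.38. Cartilage, bone and fibroblast markers are from cells known to secrete osteoprotegerin in mammals. Of 9 found, 6 had enough counts to be tested and 0 passed. RUNX2 (ENSDARG00000040261) and twist1b were at 0 counts in mutants, whereas their paralogues runx2b and twist1a were counted there. The markers of this list summed to 1054 to 2070 CPM in mutants and 2107 to 4496 CPM in wildtypes. They were lowest among wildtypes in replicate 1, where tnfrsf11b was highest. Wildtype replicate 1, in which tnfrsf9b, tnfrsf11b, tnfrsf21 and tnfrsf9a peaked, was also the library with the highest pigment and neuron marker sums. Hatching gland and epidermis markers summed to 14655, 5473 and 4088 CPM in mutant replicates 1 to 3 and to 8198 to 10184 CPM in wildtypes. Their highest sum was thus in mutant replicate 1, the library with the highest tnfrsf1a. The part of these cells in the receptor values was not tested.

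**Figure D5:**
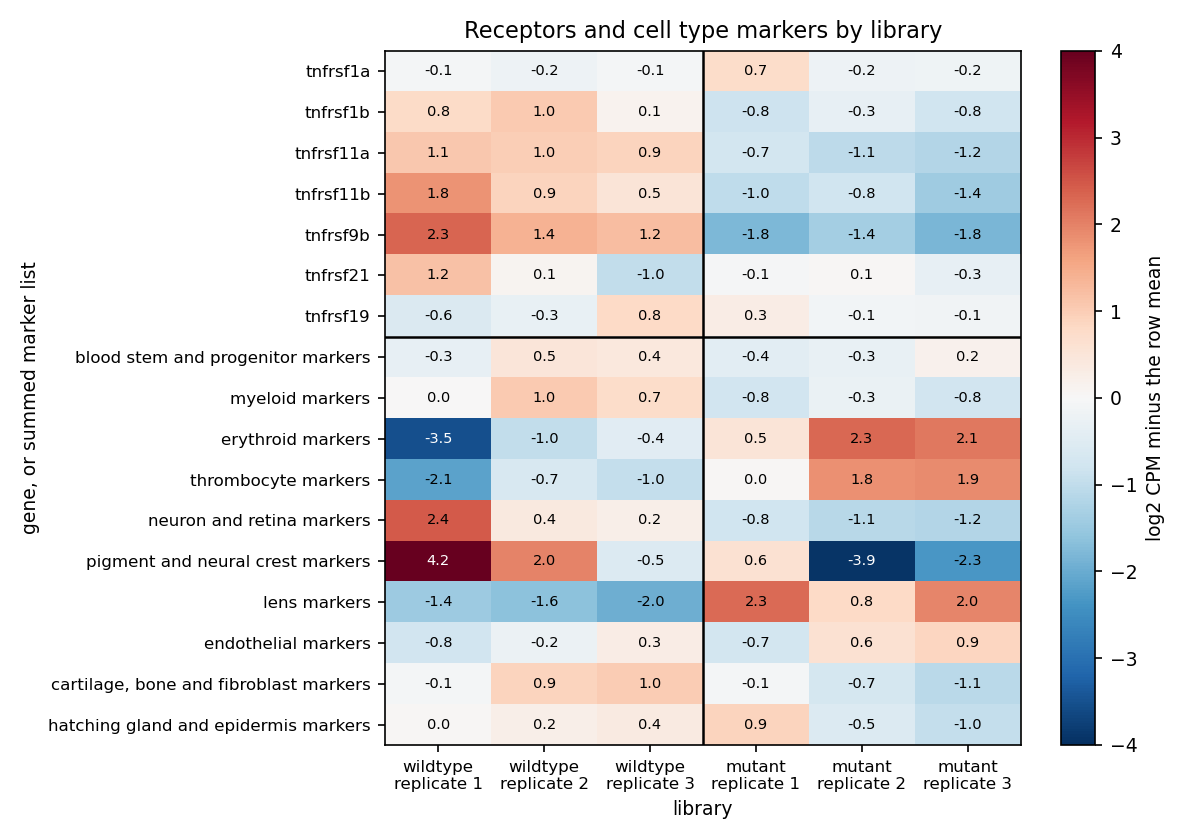
Log2 CPM of each receptor gene (upper rows) and of each summed marker list (lower rows) minus the mean of its row, by library, with blue for low and red for high. The rows of tnfrsf1b, tnfrsf11a, tnfrsf11b and tnfrsf9b are positive in the 3 wildtype libraries and negative in the 3 mutant libraries, tnfrsf21 peaks in wildtype replicate 1 and tnfrsf19 in wildtype replicate 3.

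To place each receptor gene among all genes, the 3 genes with the most similar profile were taken by the root mean square difference of centred log2 CPM over the 6 libraries. These 6 points share their libraries and the genotype difference, so likeness is a description only. For tnfrsf1b the nearest were sema4ab (difference 0.0739), si:ch211-153b23.7 (0.0925) and sowahd (0.132). The semaphorin gene sema4ab stood at 146, 171 and 82.0 CPM in wildtypes and 46.9, 64.8 and 49.5 CPM in mutants. PRCP, dtwd2 and tmem107 were nearest to tnfrsf11a (0.13 to 0.16), and SULF2, BACH2 and prdx6 to tnfrsf11b (0.124 to 0.167). BACH2, a transcription factor gene of lymphocytes in mammals, peaked in wildtype replicate 1 at 82.9 CPM, as tnfrsf11b did. The nearest genes to tnfrsf9b, fam49al, nme2b.2 and lgals3bp.1, were farther off (0.296 to 0.349).

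Among the receptor genes that overlapped between genotypes, tnfrsf1a was nearest to MAP3K11 (0.0753), EFNB2 (0.10) and AXIN2 (0.103), all highest in mutant replicate 1. For tnfrsf21 they were LIN28A, rgs3a and GRAMD1B (0.154 to 0.184), each highest in wildtype replicate 1. The nearest gene to tnfrsf19 was another receptor of the superfamily, EDAR (0.117), the ectodysplasin receptor gene of skin appendages, followed by CKB and FAT2 (0.125 and 0.129). EDAR stood at 4.65, 5.15 and 11.4 CPM in wildtypes and 6.91, 5.10 and 5.61 CPM in mutants, with its high value in wildtype replicate 3 as for tnfrsf19.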

How the data were processed

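Libraries were made from polyadenylated RNA of sorted cells with a low-input protocol, per the labels. The authors' tool for assigning paired fragments to genes was featureCounts 1.5.0-p1, with the Ensembl release 85 annotation of GRCz10, without strand, per the file headers, and the deposited values are raw counts. STAR 2.4.2a is named in the submitters' processing notes. Symbols came from a table of Ensembl names, which named 26269 of 32105 genes. Members and lists were chosen with earlier results of these data known. Of 234 list entries, 152 matched by symbol, 28 by orthologue symbol, 18 were ambiguous and 36 unmatched.

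Genes were fitted in edgeR 4.0.16 (R 4.3.3) after TMM scaling and filterByExpr (minimum count 10, minimum total 15), with a two-sided quasi-likelihood F test of genotype and Benjamini-Hochberg adjustment over 18722 genes. Standard errors are the log2 fold change over the square root of F. FPKM is CPM per kilobase of summed exons. Alternatives were RLE, no filter, 1 CPM in 3 libraries, DESeq2 1.42.0, limma 3.58.1 voom (weighted samples), a replicate block and each library left out. The fits were checked on simulated counts, drawn independently for each library with the dispersions fitted here. That check cannot show how shared batches or shifts in cell makeup would act on them. No libraries were alike within counting noise (chi-square per degree of freedom at least 18.3). From each list the genes past the threshold, those with the next smallest p up to 4 and the most abundant were named. Similar profiles were sought among genes with a symbol and a mean log2 CPM of at least 1.0 (prior count 2). Each of the 7 genes had at least 35 counts per genotype. Of the counts, 21.3% to 30.7% were mitochondrial.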

Additional observations from a re-analysis of the deposited data

How the results depend on the processing

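The direction of tnfrsf1b, tnfrsf11a, tnfrsf11b and tnfrsf9b was the same under all 12 alternatives, while tnfrsf1a, tnfrsf21 and tnfrsf19 changed sign under 1, 2 and 3. Depth limits tnfrsf9b most, with 35 mutant counts. Genes higher and lower numbered 1297 and 1168 with DESeq2 and 1460 and 1352 with limma voom, and 653 were lower with the replicate block. Leaving out 1 library gave 51 to 1135 higher and 11 to 832 lower. In those same fits 0 to 4 of the 7 receptor genes were past the threshold as lower, beside the 11 to 832 of all genes. The 7 were chosen with their values in view, so this range describes the threshold and is no test of them. Among other receptors DESeq2 called 2 lower, limma voom 3 and the replicate block 2, and 0 to 3 were lower with 1 library left out. Ligands lower numbered 1 with DESeq2, 1 with limma voom and 0 to 1 with a library left out. Adaptors higher numbered 1 with DESeq2 and 2 with limma voom. NF-kB induced genes numbered 0 to 1 higher and 0 to 2 lower with a library left out. Osteoclast genes lower numbered 1 without a filter on low counts, 3 with DESeq2, 2 with limma voom, 3 with the replicate block and 0 to 2 with a library left out. The cause of these shifts was not tested.

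Same-numbered libraries correlated at 0.0875 to 0.224 in their deviations from the group means, and each library correlated best with its own number. This is a hint from the data, and the numbers were not taken as pairs since a pair was under 0.1. Library sizes were also set to the total of non-mitochondrial counts, without TMM scaling. FPKM levels then rose by construction: to 2.97 and 12 for tnfrsf11a in mutants and wildtypes, 24.7 and 63.6 for tnfrsf1b, and 78.0 and 66.8 for tnfrsf1a. In mutants they were 0.641 for tnfrsf9b, 1.59 for tnfrsf11b, 5.04 for tnfrsf21 and 9.65 for tnfrsf19. Leaving lyz out of the myeloid sum was chosen after seeing the data.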
